A study of Drosophila melanogaster with 4 samples.

Results

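Phototransduction is the chain of reactions by which a photoreceptor of the fly eye turns absorbed light into an electrical signal. The genes described here were 10 genes of this chain (trpl, Cpn, ninaE, ninaC, trp, inaC, inaD, Galphaq, Arr1 and Arr2), chosen by name, together with every array probe that could be assigned to them. A probe was assigned where the probe name, or the transcript identifier that it shares with a named probe, carried one of these symbols in the gene lists supplied with the study. This gave 9 probes for 5 of the 10 genes, out of 32162 probes on the array. There were 4 probes for trpl, 2 for Cpn and 1 each for trp, ninaC and Galphaq, the last of which is listed in RefSeq under the name Galpha49B as well. All 9 were well above background on every array and entered the comparison. The other 5 genes (ninaE, inaC, inaD, Arr1 and Arr2) are not analysed here. Of the 9 probes, 5 were named in a list of probes that the study had selected because they changed at least 2-fold, and 4 were not on that list. The direction of those 5 in the same arrays is therefore given as a description and is not support for a change of the pathway. Only the trp probe would have been named whatever its outcome.

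The arrays compared whole virgin female flies without dSETD3 (CG32732), the fly counterpart of a histidine methyltransferase of actin, with virgin females of the control strain w[1118], in which CG32732 is intact. The labels give w[1118], a mutation of the white eye colour gene, for both genotypes. The dSETD3 KO flies carried a CRISPR/Cas9 deletion allele of CG32732 in which a dsRED marker cassette took the place of coding sequence, and they represent 1 knockout stock. All flies were 5 days old, and each genotype was represented by 2 arrays labelled as replicates. Nothing further is stated about how the flies of a replicate were pooled, so p-values measure the spread between these arrays. At the 2 probes of CG32732, the background-corrected signal was 7810 and 7999 (probe A_09_P016351) and 1090 and 1150 (probe A_09_P201260) on the control arrays. The dSETD3 KO arrays read between 3.47 and 9.87, not well above background, so the arrays followed their labels. All 4 arrays lay on 1 slide with the control arrays at the first positions and the dSETD3 KO arrays at the last, so position and genotype cannot be told apart.

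In the fly eye, light converts rhodopsin to its active form, which activates a heterotrimeric G protein of the Gq class, whose alpha subunit is encoded by Galphaq. The G protein stimulates phospholipase C, and the breakdown of the membrane lipid PIP2 leads to opening of the cation channels TRP and TRPL in the rhabdomere, the stack of light-sensing microvilli of each photoreceptor. Calcium entering through these channels feeds back on nearly every step, and arrestins, kinases and the unconventional myosin NinaC shape how the response ends.

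The probe sequences of 4 genes of the light response are shown, since they include the only member probe named whatever its outcome and inaF probes that were not detected. The sequences come from the study's list of all probes and the chromosome of each gene from RefSeq. No capitals are used because no stretch was singled out. The trp gene lies on chromosome arm 3R, and rdgA, inaF-A and inaF-C, which serve the same pathway and are described further on, lie on the X chromosome. Of the 60 bases of the trp probe only the first 30 are given.

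trp probe A_09_P009831: gccgcggaatccactttcatagcaattaaa
rdgA probe A_09_P003856: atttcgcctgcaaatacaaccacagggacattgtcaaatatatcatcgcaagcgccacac
inaF-A probe A_09_P003741: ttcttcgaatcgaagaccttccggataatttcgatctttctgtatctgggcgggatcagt
inaF-C probe A_09_P003736: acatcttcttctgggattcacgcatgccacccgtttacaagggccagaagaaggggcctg

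All levels below are scaled signals, that is, the background-corrected signal of a probe as a percentage of the 75th percentile of all probes on the same array. They are given as control replicate 1, control replicate 2, dSETD3 KO replicate 1 and dSETD3 KO replicate 2. Changes are log2 differences, dSETD3 KO minus control, with the standard error (SE) and the adjusted p of limma after Benjamini-Hochberg correction over all 21082 probes tested, each with 2 arrays per genotype. A probe was called at an adjusted p under 0.05.

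Of the 9 phototransduction probes, 5 were called lower in the dSETD3 KO flies, 1 was called higher and 3 were not called. The shares among all probes tested were 16.6% called lower and 3.8% called higher. The median change of the 9 probes was -1.08, against 0.02 over all probes tested. Among the 4 probes outside the study's list of changed probes, 1 was called lower (the second Cpn probe), 3 were not called, and the median change was -0.58. Flies were used whole, so fewer photoreceptors and less transcript per photoreceptor cannot be told apart in any of these values.

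Among the light-activated channels, TRP carries most of the light-induced current and TRPL is its relative with broader cation selectivity. The trp probe, A_09_P009831, gave scaled signals of 331% and 358% on the control arrays and 150% and 164% on the dSETD3 KO arrays. Both dSETD3 KO arrays lay below both control arrays, with a log2 change of -1.14 (SE 0.10, adjusted p = 0.0166). For trpl the probe A_09_P011556 gave 551% and 602% on the control arrays and 93.6% and 95.6% on the dSETD3 KO arrays. The dSETD3 KO flies thus held 16.4% of the control level at this probe, a log2 change of -2.61 (SE 0.09, adjusted p = 0.0040), and this change ranked 61st from the lowest among the 21082 probes.

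The other 3 probes of trpl carry the same transcript identifier, and none of them fell as far. Probe A_09_P224995 gave 72.4% and 75.1% on the control arrays and 51.5% and 33.6% on the dSETD3 KO arrays. The groups did not overlap, but the dSETD3 KO arrays lay far apart, and the change of -0.83 (SE 0.23, 95% interval -1.44 to -0.21, adjusted p = 0.0705) was not called. It was -1.13 and called without dSETD3 KO replicate 1 (adjusted p = 0.00678), a fit in which the lone dSETD3 KO array is assumed to vary like the controls although the 2 dSETD3 KO arrays lay far apart, and -0.81 and called from the deposited table of processed values (adjusted p = 0.0423). Genotypes that separate in this way were common, since both dSETD3 KO arrays lay below both control arrays for 37.2% of all probes tested and above both for 39.4%. Probe A_09_P145430 gave 9.69%, 10.6%, 7.73% and 10.4%, with overlapping groups and a change of -0.18 (SE 0.17, 95% interval -0.65 to 0.29, adjusted p = 0.446). Probe A_09_P181890, the dimmest of the 9, gave 2.74%, 3.34%, 1.96% and 2.90%, again overlapping, with a change of -0.34 (SE 0.23, 95% interval -0.97 to 0.29, adjusted p = 0.297). Both intervals left out a fall as large as that at A_09_P011556. RefSeq lists 3 transcripts of trpl. Which of them each probe binds, and whether a sequence variant lies under a probe, was not tested.

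**Figure D1:**
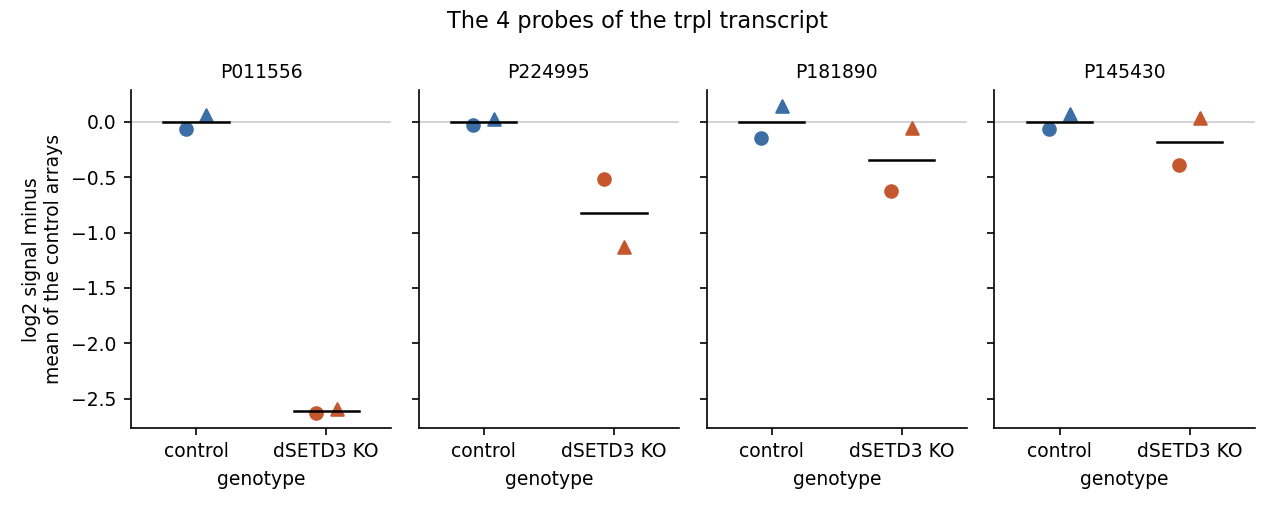
Log2 signal at the 4 probes of trpl, each relative to the mean of its 2 control arrays (blue control, orange dSETD3 KO, circles replicate 1, triangles replicate 2, black bars genotype means). The fall of 2.61 at A_09_P011556 stands beside changes of -0.83, -0.34 and -0.18 at the other probes, and the groups overlap at the last 2.

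The disagreement does not depend on how arrays were scaled, because it can be read as the difference between 2 probes on the same array. The log2 difference between A_09_P011556 and A_09_P145430 was 5.83 and 5.83 on the control arrays and 3.60 and 3.20 on the dSETD3 KO arrays, a shift of -2.43. Against A_09_P181890 the shift was -2.26 and against A_09_P224995 it was -1.78. In each of these comparisons the genotypes did not overlap, with an exact two-sided permutation p of 0.333, the smallest that 2 arrays against 2 can give. The change of a probe also went with its brightness over the whole array. All probes tested were divided into 8 classes of equal size by mean signal. The median change was -0.35 in the class that holds A_09_P181890 and -0.28 in the class of A_09_P145430, so the values of -0.34 and -0.18 at these probes were near or above the middle of equally dim probes. In the class of A_09_P011556 and trp, the seventh from the dimmest, the median was 0.17 and only 5.69% of probes were called lower.

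Within arrays, trpl at A_09_P011556 also fell further than trp. The log2 difference between the trpl and the trp probe was 0.74 and 0.75 on the control arrays and -0.68 and -0.77 on the dSETD3 KO arrays, a shift of -1.47 (exact two-sided permutation p = 0.333). At the remaining trpl probes the shift against trp went the other way or overlapped, with 0.31 at A_09_P224995 (overlapping), 0.79 at A_09_P181890 and 0.96 at A_09_P145430. Whether trpl transcripts fell more or less than trp transcripts thus depended on the probe.

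Cpn encodes calphotin, a calcium-binding protein of the photoreceptor cytoplasm. Its 2 probes gave nearly the same change. Probe A_09_P012016 read 216% and 238% on the control arrays and 76.2% and 72.3% on the dSETD3 KO arrays. Probe A_09_P167815 read 226% and 262% on the control arrays and 83.9% and 82.0% on the dSETD3 KO arrays. Both were called lower, with changes of -1.61 (SE 0.10, adjusted p = 0.0112) and -1.55 (SE 0.11, adjusted p = 0.0135). The difference between the 2 probes on the same array shifted by -0.06 between genotypes, with overlapping values, in contrast to the trpl probes. The second probe was not on the list of changed probes, although its name comes from the transcript it shares with a probe on that list. Relative to trp on the same array, Cpn fell further, by 0.47 and 0.42 on the log2 scale at its probes, with no overlap of the genotypes (exact two-sided permutation p = 0.333).

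NinaC joins a protein kinase domain to a myosin motor domain and is needed for normal termination of the light response. Its only named probe, A_09_P043861, gave 110% and 118% on the control arrays and 50.4% and 57.1% on the dSETD3 KO arrays. The change of -1.08 (SE 0.11, adjusted p = 0.0173) was close to that of trp. On the same array the log2 difference between ninaC and trp was -1.59, -1.60, -1.57 and -1.52, a shift of 0.05 between genotypes, so these probes moved almost in parallel.

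Galphaq was the exception in direction. Its only named probe, A_09_P010581, gave 24.1% and 26.1% on the control arrays and 69.6% and 81.4% on the dSETD3 KO arrays, with a log2 change of 1.58 (SE 0.12, adjusted p = 0.0146). The log2 difference between Galphaq and trp on the same array was -3.78 and -3.78 in the controls and -1.11 and -1.01 in the dSETD3 KO flies, a shift of 2.72 (exact two-sided permutation p = 0.333). Outside the eye, Galphaq acts in many other tissues, and RefSeq lists 7 transcripts of the gene. Which of them the probe reports, and whether it also binds transcripts of related G protein genes, was not tested. Galphaq is the only member with a rise, and like trpl and ninaC it rests on a probe that was named because it changed. The names of both Cpn probes also come from such a probe.

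**Figure D2:**
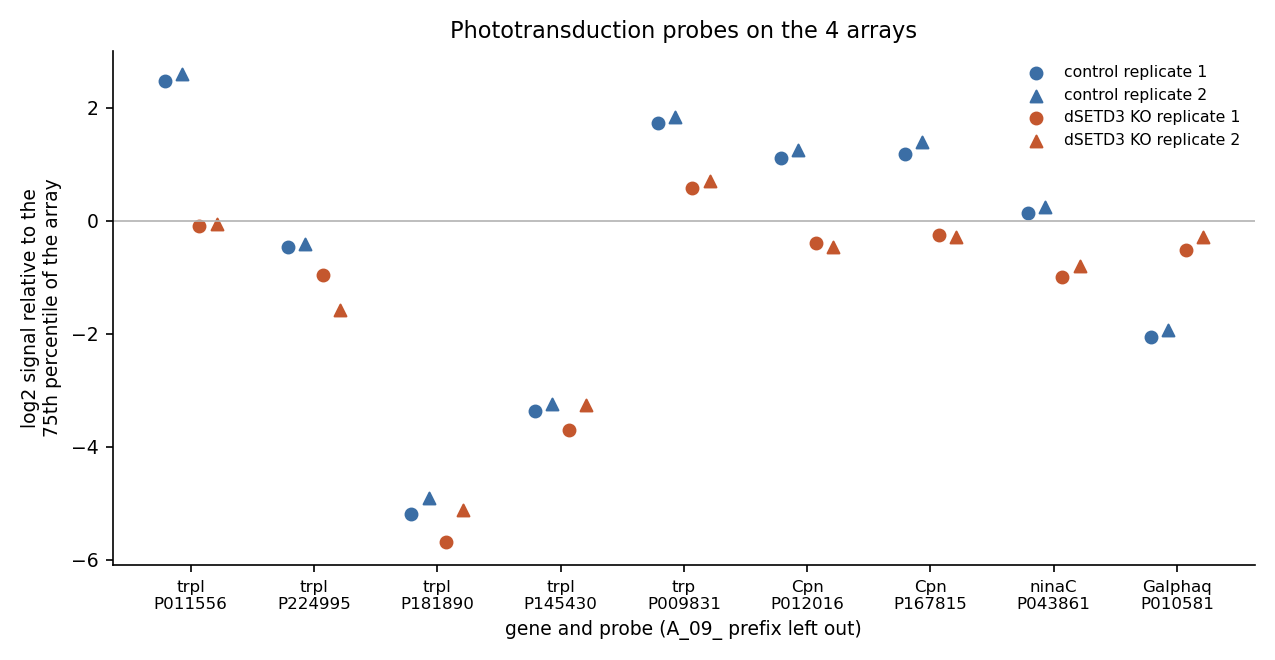
Log2 signal relative to the 75th percentile of the array for the 9 probes of the 5 genes on each of the 4 arrays (blue control, orange dSETD3 KO, circles replicate 1, triangles replicate 2). The dSETD3 KO arrays lie below the controls at trp, ninaC, both Cpn probes and 2 trpl probes, overlap with them at 2 trpl probes and lie above them at Galphaq.

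Across the settings tried, each of the 6 called probes kept its direction. The change ranged from -2.69 to -2.54 at trpl A_09_P011556, from -1.21 to -1.07 at trp, from -1.69 to -1.54 and from -1.66 to -1.45 at the Cpn probes, from -1.18 to -0.99 at ninaC and from 1.37 to 1.70 at Galphaq. All calls rested on both control arrays. Without control replicate 1, or without control replicate 2, limma called 0 probes of the whole array, members included. At an unadjusted p under 0.05 there were then 7183 and 4817 probes on the whole array and 6 of the 9 phototransduction probes in both cases.

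**Figure D3:**
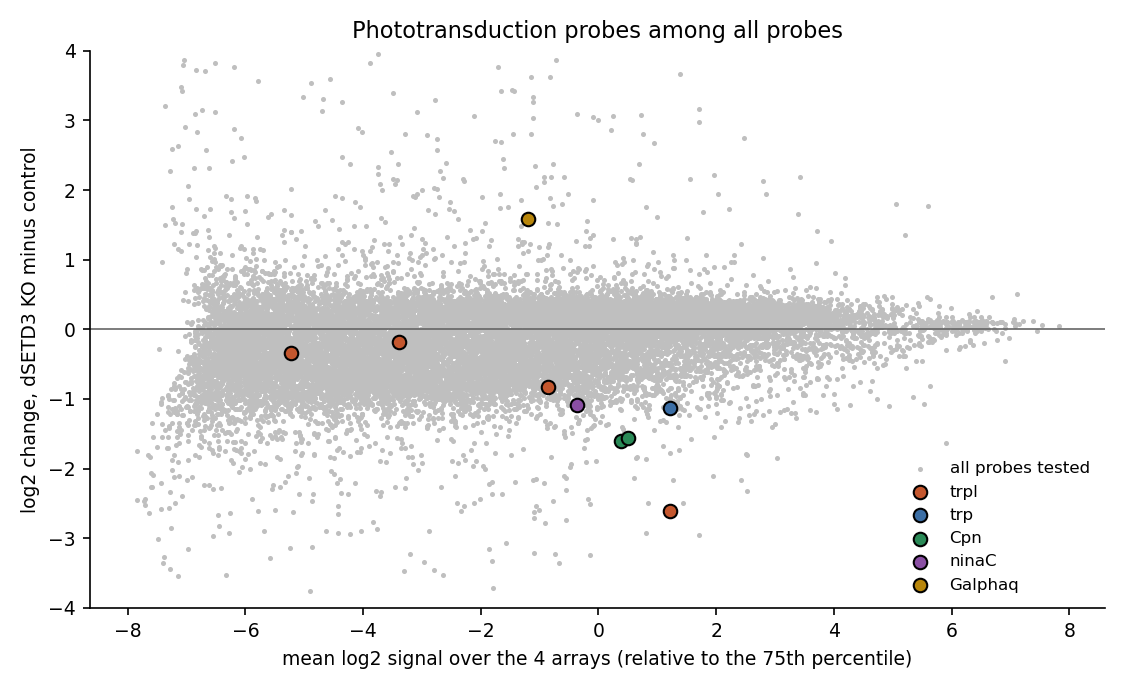
Log2 change (dSETD3 KO minus control) against mean log2 signal for all 21082 probes tested (grey) with the phototransduction probes in colour, where 61 probes beyond a change of 4 in either direction lie outside the plot. The called trpl probe, trp and Cpn lie in the brighter range and below most probes there, ninaC lies below most probes of middle brightness, Galphaq lies above, and the 2 dimmest trpl probes lie within the cloud.

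Further genes of phototransduction and of the eye were taken from lists of 63 genes, of which 12 had a named probe. These lists were chosen with earlier results of these data known, so the counts below are a description. Of their 17 probes tested, 16 were called lower and 0 higher by limma (0 higher also at an unadjusted p under 0.05), with a median change of -1.09. The list of changed probes held 8 of the 17, and all 8 of these were lower. Of the 9 tested probes outside it, 8 were called lower. Those of inaF-D, boss, chp and salm among them were named only through a transcript shared with a probe on that list. Of the 5 named whatever their outcome, 4 were called lower, namely those of rdgA and inaF-C and both probes of oc. For comparison, 19.5% of the 1516 tested probes over the whole array that were named whatever their outcome were called lower. This comparison was not matched for brightness. Among all probes tested, the share called lower was 29.3% in the third of the 8 brightness classes from the dimmest and 4.97% in the brightest. None of the 17 listed rhodopsin and opsin maturation genes had a named probe, so the first step of the pathway is not analysed here.

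Among the G protein and lipid genes, Ggamma30A, the gamma subunit of the G protein of the eye, gave 217% and 226% on the control arrays and 106% and 115% on the dSETD3 KO arrays. The dSETD3 KO flies thus held 49.96% of the control level (SE of the log2 change 0.09, adjusted p = 0.0167), the opposite direction to the alpha subunit probe. The diacylglycerol kinase gene rdgA, which acts in the lipid cycle after phospholipase C, gave 43.3%, 50.8%, 28.3% and 30.9%. Its change of -0.67 (SE 0.12, adjusted p = 0.0344) was smaller than that of trp, and it was named whatever its outcome.

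The inaF locus encodes several small proteins, one of which is needed for normal TRP channel function. The 3 probes of inaF-D were all called lower, with changes of -1.18, -1.08 and -0.83 (adjusted p from 0.0130 to 0.0285). For inaF-C the probes differed. Probe A_09_P196270 gave 19.8% and 22.8% on the control arrays and 10.1% and 11.4% on the dSETD3 KO arrays, a change of -0.98 (SE 0.12, adjusted p = 0.0202). Probe A_09_P003736, whose sequence is given above, was not well above background on any array, with scaled signals of 0.656%, 0.251%, 0.275% and 0.669%, and neither was the inaF-A probe. Camta, a calmodulin-binding transcription factor that acts in deactivation of rhodopsin, was not called, with 43.3% and 42.3% against 50.2% and 44.3% and a change of 0.14 (SE 0.10, 95% interval -0.14 to 0.42, adjusted p = 0.336).

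All 10 tested probes for the structure and fate of eye cells were called lower, against 16.6% of all probes tested. Only 5 of the 10 were outside the study's list of changed probes. Of these, the chp, boss and salm probes were named only through a transcript shared with a probe on that list. The photoreceptor surface protein gene chp, known as chaoptin, changed by -1.03 and -1.22 at its 2 probes. The gene boss, the ligand that the R8 photoreceptor presents to its neighbour R7, changed by -1.18 and -1.03. The transcription factor gene salm changed by -1.41 and -1.38, and it also acts in flight muscle. The scaffold gene sdt, which organises the apical membrane of epithelia and photoreceptors, changed by -1.09, and retinin, a protein of the corneal lens, by -1.21. The adjusted p of these 8 probes was between 0.0103 and 0.0216. The homeobox gene oc, which photoreceptors and ocelli use, was named whatever its outcome. Its probe A_09_P010136 gave 11.6% and 12.6% on the control arrays and 4.87% and 5.56% on the dSETD3 KO arrays, a change of -1.21 (SE 0.11, adjusted p = 0.0167). Its second probe, A_09_P218790, was not well above background on the dSETD3 KO arrays. The value of 2.58-fold lower (adjusted p = 0.0231) rests on signals above the lowest detected signal of those arrays and is not a strict bound. The 2 probes of chp, of boss and of salm shifted against each other by between -0.19 and -0.03 on the log2 scale. The 3 pairs of inaF-D probes shifted by -0.35, -0.25 and -0.09, with no overlap of the genotypes (exact two-sided permutation p = 0.333). All of these shifts were smaller than those between trpl A_09_P011556 and the other trpl probes.

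A list of eye pigment genes was described as well. Whether the probes tested from it report eye tissue in whole flies was not tested. The product of w transports pigment precursors, and the labels give both genotypes the same mutation of this gene. Both w probes and the probe of its partner st were not well above background on any array. The 2 probes of lt, a vesicle trafficking gene, changed by -0.38 (adjusted p = 0.0554) and -0.05 (adjusted p = 0.634). The tryptophan oxygenase gene v gave 142% and 201% on the control arrays and 129% and 84.0% on the dSETD3 KO arrays, a change of -0.70 (SE 0.28, adjusted p = 0.134). None of the 3 probes tested was called by limma, and 1 of them, the first lt probe, had an unadjusted p under 0.05. That probe was called with 2 of the other settings, with changes of -0.46 and -0.38, and v was called without dSETD3 KO replicate 1, with a change of -1.01, again with the lone dSETD3 KO array assumed to vary like the controls.

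**Figure D4:**
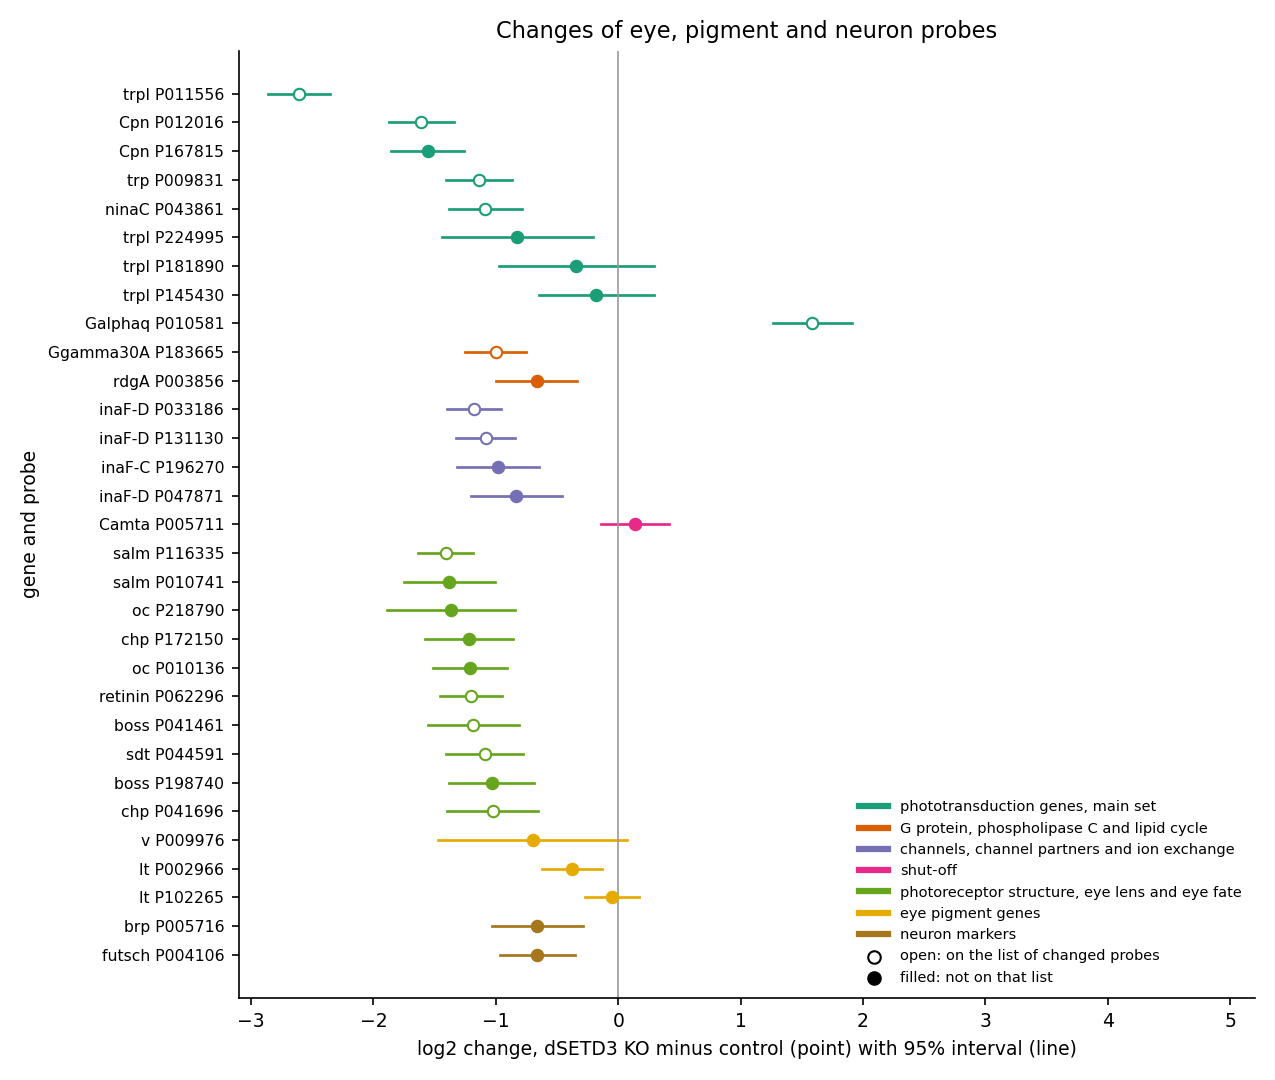
Log2 change (point) with its 95% interval (line) for each tested probe of the phototransduction genes, the further eye and pigment lists and 2 neuron markers, with open points for probes on the study's list of changed probes and filled points for others. Points of the called eye genes lie between -2.61 and -0.67, the pigment genes and Camta have intervals that reach or approach 0, and Galphaq stands alone at 1.58.

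Markers of other tissues moved in the same arrays. The neuron markers brp, a scaffold of the presynaptic active zone, and futsch, a microtubule-associated protein, both changed by -0.66 (adjusted p = 0.0421 and 0.0305), and the other 17 neuron markers of the list had no named probe. Both probes were dim, with a mean signal between those of trpl A_09_P181890 and A_09_P145430. The median changes in the brightness classes of those trpl probes were -0.35 and -0.28. Of 19 muscle marker genes, 16 had a tested probe, and 35 of their 40 probes were called lower, with a median of -1.09. Most of these probes were named because they changed, and outside the list of changed probes 7 of 12 were called lower, with a median of -0.65. Some of those 12 were named only through a transcript shared with a probe on that list. The summed scaled signal of all 42 named muscle probes, including 2 not tested, was 38320% and 39440% on the control arrays and 19360% and 18890% on the dSETD3 KO arrays. Outside the list of changed probes this sum was 9302% and 9778% against 5938% and 5886%. The summed signal of the 9 phototransduction probes went from 1544% and 1693% to 585% and 599%. Most of this sum came from probes named because they changed. Outside the list of changed probes it went from 311% and 351% to 145% and 129%. Of 11 probes for follicle cell genes, 10 were called higher, with sums of 5553% and 6865% against 19680% and 21960%. Outside the list of changed probes only 2 were tested, of which 1 was called higher. Their sums were 842% and 830% against 2460% and 2000%. Of 8 fat body marker genes, only Yp1 and Yp3 had a named probe. Neither was called by limma (1 had an unadjusted p under 0.05), with changes of 0.04 and 0.30 and sums of 8822% and 8072% against 9572% and 10080%. The part of these shifts in the changes of the eye genes was not tested. The photoreceptor genes trp, Cpn, ninaC and trpl were well above background on all 4 arrays.

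The surroundings of the members in the genome were described as well, because Galphaq and trpl, like ninaC, rest on 1 changed probe each. Among the 25 protein-coding genes on each side of Galphaq in RefSeq gene order, 31 had a named probe that was tested. Of their 40 probes, 7 were called lower and 8 higher, with a median change of 0.06. Of the 34 among them with a name independent of their outcome, 6 were called lower and 5 higher. Over the whole array, 19.5% of the tested probes named in this way were called lower and 6.27% higher. The gene 4 places from Galphaq, CG33792, was not well above background on the control arrays and at least 5.87-fold higher with the knockout (adjusted p = 0.00347), a bound set against the lowest signal well above background on each control array. At 3 places, muskelin changed by 0.46 (adjusted p = 0.0473). The gene 5 places away, spt4, which encodes a transcription elongation factor, rose by 1.61 (adjusted p = 0.0112). CG8768, at 19 places, rose at its 3 probes by 4.30, 4.66 and 1.86. On the other side, 7 places away, Cyp301a1 changed by -1.03 (adjusted p = 0.0166). At 11 places, 1 of 3 probes of fra fell by 1.84 (adjusted p = 0.0113), while the others changed by 0.30 and -0.07 and were not called. That fallen fra probe, the spt4 probe and the CG8768 probes that rose by 4.66 and 1.86 were named because they changed. CG17760 at 2 places changed by -0.61 (adjusted p = 0.0446), so neighbours of Galphaq changed in both directions. Around trpl, 26 neighbouring genes had 34 probes tested, of which 3 were called lower and 5 higher, with a median of 0.16. Of the 33 among them with a name independent of their outcome, 3 were called lower and 4 higher. The changes around trpl included a rise of 3.06 at CG30001, 8 places away, at a probe named because it changed. They also included a fall at dila, 9 places away. The dila signal was not well above background on the dSETD3 KO arrays. The 2.53-fold lower value at dila rests on signals above the lowest detected signal of those arrays and is not a strict bound. For trp, Cpn and ninaC, 1, 1 and 2 neighbours could be named, and limma called none of their 10 probes (4 had an unadjusted p under 0.05).

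**Figure D5:**
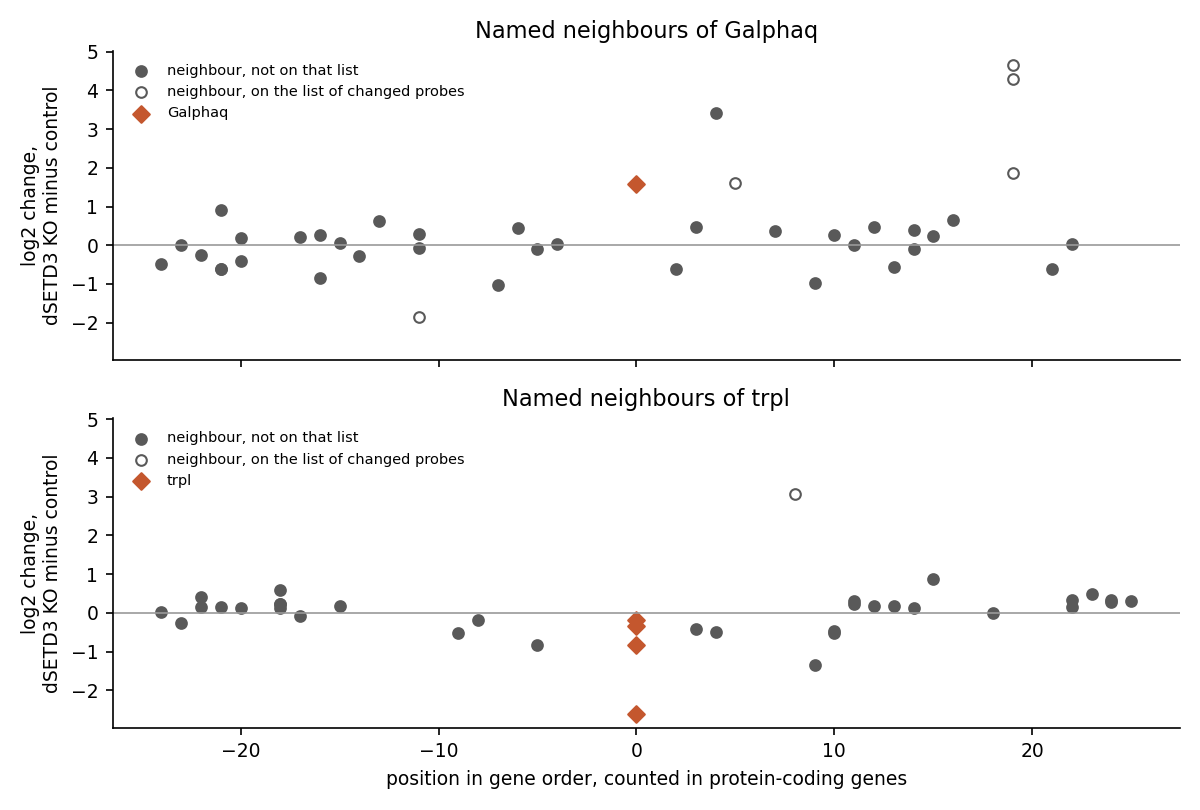
Measured log2 change of each tested, named probe among the 25 protein-coding genes on each side of Galphaq (top) and trpl (bottom), with position counted in genes and the member itself at 0 (diamonds). Most neighbours of both genes lie between -1 and 1. Around Galphaq, itself at 1.58, the exceptions are risen genes at 4, 5 and 19 places and fallen ones on the other side.

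The profiles most like that of the 5 lower phototransduction probes were sought among the 1854 other named probes, with the distance between the log2 profiles over the 4 arrays, centred on each probe's mean, as the measure. The nearest were CG14500 (distance 0.06, change -1.58), CG11852 (distance 0.09, change -1.59) and CG32850 (distance 0.11, change -1.63). With 2 arrays per genotype this likeness describes little more than the size of the change.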

How the data were processed

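RNA of whole flies was labelled with Cy3 and hybridised to 1-colour Agilent arrays of 60-base probes. The authors deposited Feature Extraction output (version 10.7.3.1 in the header) with a background-subtracted spot intensity per spot, without normalization across arrays, and a table of 1 intensity value per probe, used as an alternative. Each array had 45019 spots. Left out were 1417 control spots and 45 to 73 outlier spots. Between 20464 and 21482 of 32162 probes stood well above background. The number of arrays limits the precision.

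The log2 signals of a probe's spots were averaged and scaled to the 75th percentile of the array. The test was limma (3.58.1, R 4.3.3) with genotype as its sole factor, on 21082 probes detected on both arrays of at least 1 genotype, followed by the Benjamini-Hochberg method. This step was tested on simulated data. Python 3.11.15, pandas 2.3.3, numpy 2.4.6 and matplotlib 3.10.9 were also used.

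Names cover 2783 probes, from the study's list of 273 changed probes, from 1992 rows used of its list of all probes, from transcripts shared with these, and from RefSeq accessions (Release 6 assembly, for names and gene order only). Named in the text is every member and listed gene with a probe, and of other genes the nearest or most changed neighbours, chosen after their values were seen. Members and lists were chosen with earlier results of these data known. The study's columns of fold changes and p-values were not used.

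The replicate numbers of control and dSETD3 KO arrays share no stated source, and deviations of same-numbered arrays correlated at r = -0.21. Alternatives to scaling, background correction, filter, source of values, test and replicates are given in the closing section.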

Additional observations from a re-analysis of the deposited data

How the results depend on the processing

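Over 14 other settings, the 9 phototransduction probes kept direction and side of the threshold in 98 cases, lost the call in 23, gained it in 2 and reversed in 3. The reversals were at trpl A_09_P145430, with 0.092 under quantile normalization, 0.11 under cyclic loess and 0.035 without dSETD3 KO replicate 1, none of them called, and it ranged from -0.39 to 0.035 when 1 array was left out. The lt probe A_09_P102265 turned to 0.0099 under quantile normalization, also not called. Of the phototransduction probes, 5 lower and 1 higher by limma became 1 and 0 without a filter on dim probes and 0 and 0 with the methods' t-test, where 6 had an unadjusted p under 0.05. When 1 array was left out they ranged from 0 to 6 lower and from 0 to 1 higher, and for the further eye probes from 0 to 16 lower. Those 16 became 0 without the filter and 0 with the methods' t-test, where 16 still had an unadjusted p under 0.05. The cause was not tested.

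For the whole array, 3497 lower and 801 higher probes became 1391 and 405 with normexp, 26 and 38 without the filter (59.4% higher, against 18.6%), 2 and 0 with the methods' t-test, and between 0 and 4163 lower and 0 and 981 higher with 1 array left out. The count of higher probes was 1411 under quantile normalization (36.6% of calls) and 1495 under cyclic loess (37.2%). At an unadjusted p under 0.05, the t-test gave 6404 probes.

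A fit with the replicate block gave 2509 lower and 382 higher probes over the whole array and changed no call of a phototransduction probe. Since same-numbered arrays deviated in opposite directions, a crossed replicate block was added after seeing the data, with 1400 lower and 319 higher probes over the whole array. Of the further eye probes, 16 were called lower with the replicate block and 11 with the crossed one.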
